A study of Saccharomyces cerevisiae Sigma1278b with 62 samples.

Results

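The 41 genes described here encode proteins of the large subunit of the mitochondrial ribosome of budding yeast. They were chosen by name from a fixed list of open reading frames. The list holds the MRPL genes together with YML6, IMG1, IMG2, MRP7, MRP20, MRP49 and RML2. No measured value was used as a filter, but the list was chosen with earlier results of these data known. All 41 were present in every count table, out of 5563 nuclear genes counted in at least 1 of them. The coding sequences ran from 213 nt (YML009C, MRPL39) to 1182 nt (YEL050C, RML2), with a median of 645 nt against 1230 nt over all genes.

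The mitochondrial ribosome translates the few membrane proteins of the respiratory chain and the ATP synthase that mitochondrial DNA encodes. The proteins of its large subunit are all encoded in the nucleus, made by cytosolic ribosomes and imported into the organelle, where they assemble on the large ribosomal RNA. Many descend from bacterial ribosomal proteins and sit at the peptidyl transferase center, the exit tunnel, the stalks or the central protuberance, and the others are additions found in mitochondria. Yeast ferments glucose without mitochondrial translation but needs it to grow on glycerol, and transcription of nuclear genes for mitochondrial proteins is known to be lower in glucose than in a medium that must be respired.

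Ribosome-protected mRNA fragments (footprints) and total RNA were sequenced from Sigma1278b yeast, and translational efficiency (TE) was taken as the ratio of the footprint level of a gene to its total RNA level. The main experiment, in medium with 2% glucose at 30 °C, compared wild type (WT) with asc1-M1X, in which the start codon of ASC1 is replaced by a stop codon while the small nucleolar RNA in its intron is kept, with asc1Δ, which removes the gene and that RNA, with asc1-D109Y, whose Asc1 protein sediments less with ribosomes, and with rpl23bΔ and rpp1aΔ, which each lack 1 gene copy of a cytosolic 60S subunit protein. The smaller experiments held asc1-DE, another ribosome-binding mutant, with its own WT; rps0bΔ and rps16bΔ, which each lack 1 gene copy of a 40S subunit protein, with a WT of the deletion collection; and asc1-M1X with WT after a shift from glucose to 3% glycerol. Per the study, the glycerol cells were taken just before WT resumed rapid growth, when polysomes of asc1-M1X had recovered only in part. A further set repeated total RNA of asc1-M1X and WT in glucose after removal of ribosomal RNA with Ribo-Zero in place of selection for poly(A) tails. After crosslinking in cells the D109Y and DE proteins are found with polysomes, so that how far their binding is reduced in growing cells is not settled. ASC1 encodes the homolog of RACK1, a protein of the 40S subunit. The comparisons ask how the large subunit genes respond to loss of Asc1, to the changes in the ribosome-binding mutants, to loss of other ribosomal proteins, and to a medium in which mitochondrial translation is needed.

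Per the labels, all cultures received cycloheximide, which stalls elongating cytosolic ribosomes, at 0.1 mg/ml for 2 min before harvest. Every group held 2 libraries of each kind, from separate cultures. The 2 replicates of the asc1-M1X, asc1Δ, D109Y and 60S deletion strains were different isolates, while asc1-DE, rps0bΔ, rps16bΔ and their WT were 1 strain each. Counted reads per library ranged from 1713047 to 15322986 over the 56 libraries (median 7160678), of which the 41 genes took 3479 to 127971. In the footprint libraries ASC1 fell from 30475 and 33792 reads in WT to 249 and 179 in asc1-M1X and to 165 and 66 in asc1Δ, and from 6361 and 10783 to 90 and 137 in asc1-M1X in glycerol. RPL23B held 88 and 45 footprint reads in rpl23bΔ, RPP1A 83 and 19 in rpp1aΔ, RPS0B 112 and 84 in rps0bΔ and RPS16B 38 and 67 in rps16bΔ. The mutant Ribo-Zero libraries carry a title that names the null, while their strain and description are those of asc1-M1X. ASC1 total RNA was present in both, at 5576 and 6761 reads, whereas asc1Δ total RNA held 61 and 145, so they are treated as asc1-M1X.

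Levels are given as scaled RPM, that is reads per 1000000 reads of the library after scaling with the trimmed mean of M values, and each is a share of its library, so that less of a transcript per cell and fewer cells that carry it cannot be told apart. A change is a log2 fold change with its standard error (SE) from 2 libraries per group, and a gene was called when the adjusted p of edgeR's quasi-likelihood test, taken over all genes tested, was under 0.05. Changes are relative to the bulk of the genes: scaling to the plain library size instead raised the median of all genes in asc1-M1X by 0.14 in footprints and 0.11 in total RNA, in asc1Δ by 0.15 and 0.12, in rpl23bΔ by 0.18 and 0.10, in rpp1aΔ by 0.16 and 0.11, and in asc1-M1X in glycerol by 0.14 and 0.13.

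In the WT of the main experiment, in glucose, the large subunit genes were expressed at levels close to each other and somewhat above the average gene. Per kilobase counted, the median footprint level was 91.9 scaled RPM against 53.8 over 4634 genes, and the median total RNA level was 90.2 against 76.0. Footprint levels ran from 55.5 for MRPL4 (YLR439W), the uL29 protein at the tunnel exit, to 217.6 for MRPL39, the bL33 protein and the shortest member, a span of 3.92-fold, and total RNA levels spanned 2.97-fold. In the glucose WT of asc1-DE and of the deletion collection the total RNA span was wider, at 9.16-fold and 77.4-fold, while footprints spanned 3.98-fold and 4.45-fold.

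MRPL39 stood above the other members in footprints, with 234.8 and 200.4 scaled RPM per kb in the 2 WT libraries. The next were MRPL28 (YDR462W) at 142 and 137, MRPL50 (YNR022C, bL9) at 128 and 148, MRPL33 (YMR286W, uL30) at 132 and 135, and MRPL44 (YMR225C) at 124 and 134, and each overlapped its neighbour in this order. At the low end MRPL17 (YNL252C) held 56.8 and 64.5, MRPL40 (YPL173W, uL24) 51.6 and 60.7 and MRPL4 58.4 and 52.6, and these also overlapped. The 5 highest members encode 70 to 147 residues and the 3 lowest 281 to 319. Across the 41 genes the rank correlation of footprint level per kb with coding length was -0.76, against -0.49 across all genes, and for total RNA it was -0.31 against -0.34. These points share libraries and the same trimming of each coding sequence, and the correlations are descriptions. The median log2 TE of the members in this WT was 0.03, against -0.58 over 4616 genes, with MRPL44 highest at 0.70 and MRPL4 lowest at -0.85. The other glucose WT groups gave other values: in the WT of asc1-DE the median was -0.40, against -0.70 over all genes, and in the WT of the deletion collection it was -1.03, against -0.27, so that there the members lay below the average gene. The experiments were scaled separately, and these medians were not tested against each other.

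**Figure D1:**
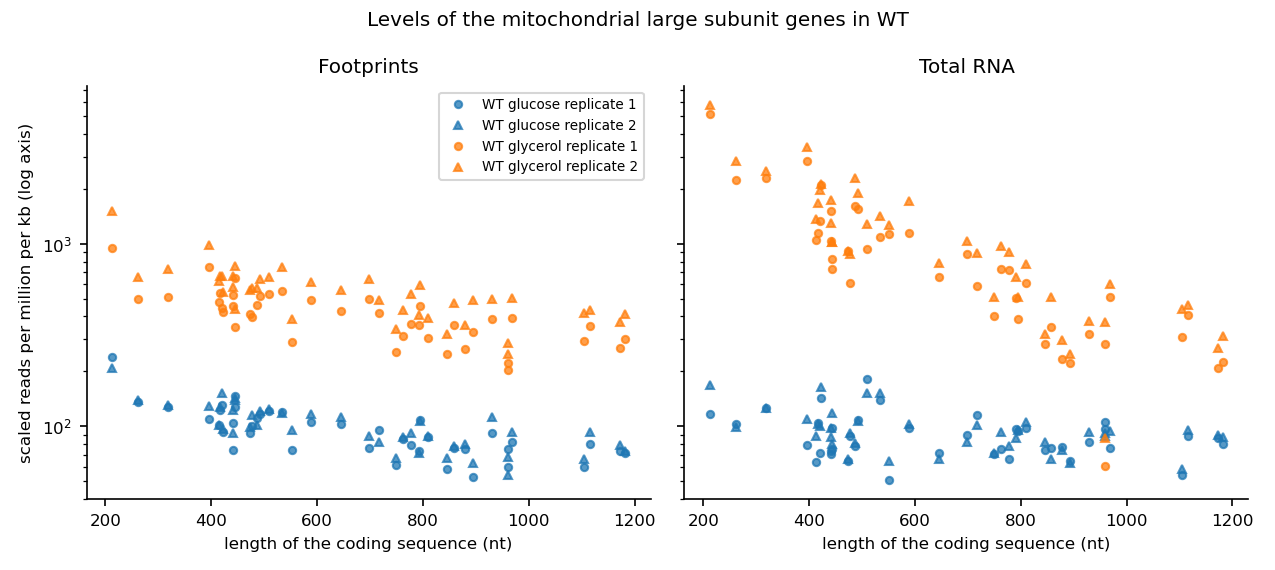
Footprint (left) and total RNA (right) level of each of the 41 large subunit genes in WT, in scaled RPM per kb on a log axis, against the length of its coding sequence in nt. Each gene has 1 point per library, blue for glucose and orange for glycerol, and the glycerol total RNA points fall with length while the glucose total RNA points stay within 2.97-fold of each other in the mean.

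Loss of Asc1 in glucose lowered footprints on most of the large subunit genes. In asc1-M1X, 31 of the 41 members fell and 1 rose, where 25.4% of the 4947 genes tested fell and 26.8% rose. The median change of the members was -0.42 (-25.1%), against 0.00 over all genes, and it was -0.42 relative to the median gene under scaling to library size as well. Total RNA fell for 9 members and rose for none, against 17.7% and 18.3% of all genes, with a median of -0.19. TE fell for 5 and rose for none, against 8.91% and 11.2%, with a median of -0.25. Over all genes, the libraries of the 2 strains did not overlap for 77.1% in footprints and 70.7% in total RNA.

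The peptidyl transferase region was represented by 6 proteins, of which 5 fell in footprints. YML6 (YML025C) encodes the uL4 protein, which lines the upper part of the exit tunnel in bacterial ribosomes, and it fell from 62.4 and 56.2 scaled RPM in WT to 39.2 and 40.9 in asc1-M1X, while its total RNA was 84.7 and 80.3 in WT and 76.2 and 77.7 in the mutant. Both mutant footprint libraries lay well below both WT libraries, and the total RNA libraries were close together without overlapping. Footprints changed by -0.54 ± 0.09 (SE, adjusted p = 0.000181), total RNA by -0.08 ± 0.07 (adjusted p = 0.438) and TE by -0.47 ± 0.11 (-27.6%, adjusted p = 0.0119). Footprints of the uL2 gene RML2, the longest member, were 74.7 and 76.4 in WT and 53.0 and 48.5 in asc1-M1X, and its total RNA was 88.8 and 96.2 against 77.5 and 75.5. Here footprints and total RNA both fell, with changes of -32.0% and -16.3%, and the TE change of -0.30 ± 0.11 was not called (adjusted p = 0.0677). MRP7 (YNL005C), the bL27 protein whose bacterial counterpart reaches the transfer RNA ends, fell in footprints from 78.4 and 90.6 to 60.4 and 59.8, with total RNA at 92.2 and 98.7 against 87.0 and 87.8. That left a TE change of -0.37 ± 0.11 (adjusted p = 0.0379). The uL3 gene MRPL9 (YGR220C) fell in footprints and in total RNA, with log2 changes of -0.41 and -0.24, and the uL15 gene MRPL10 (YNL284C) fell by 0.28 in footprints. MRPL16 (YBL038W), the uL16 protein, was the member of this region that was not called, with footprints of 44.0 and 50.4 in WT and 47.9 and 53.1 in asc1-M1X.

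Of the 4 other proteins at the exit tunnel, with YML6 counted in the peptidyl transferase region, 3 fell in footprints. MRPL22 (YNL177C, uL22) held 73.5 and 88.8 in WT and 60.3 and 59.4 in asc1-M1X, with total RNA at 69.4 and 78.9 against 73.9 and 76.1. Its footprints separated the strains while its total RNA overlapped, and TE fell by 27.1% (log2 change -0.46 ± 0.13, adjusted p = 0.0286). MRP20 (YDR405W, uL23) and MRPL4 (uL29) changed by -0.42 and -0.25 in footprints, both called. MRPL40 (uL24) stood apart, at 40.6 and 47.7 in WT and 49.0 and 48.4 in asc1-M1X (log2 change 0.15 ± 0.09, adjusted p = 0.188).

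All 3 proteins at the bases of the stalks fell in footprints. MRPL1 (YDR116C), the uL1 protein of the L1 stalk, went from 55.4 and 56.6 to 34.1 and 35.0 in footprints and from 58.4 and 51.3 to 42.1 and 39.9 in total RNA. The strains did not overlap in either measure, and the changes were -0.68 ± 0.08 (adjusted p = 2.19e-05) and -0.39 ± 0.10 (adjusted p = 0.0157). MRPL19 (YNL185C), the uL11 protein near the binding site of translation factors, went from 36.2 and 40.97 to 28.7 and 29.2 in footprints, while its total RNA was 33.6 and 34.8 in WT and 34.5 in both mutant libraries. Its TE fell by 25.8% (adjusted p = 0.045), but its coding sequence overlaps that of YNL184C, and reads of the pair cannot be assigned with certainty. MRPL11 (YDL202W), the uL10 protein, changed by -0.30 in footprints (adjusted p = 0.0223) and by -0.08 in total RNA.

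At the central protuberance, which faces the small subunit, members fell, rose or were not called in footprints. The regions were not tested against each other. MRPL7 (YDR237W, uL5) fell from 56.5 and 59.4 to 42.5 and 40.0 in footprints and from 60.9 and 58.9 to 46.8 and 45.4 in total RNA, and MRPL35 (YDR322W) fell by 0.30 on the log2 scale in footprints. MRPL28 was the 1 large subunit gene that rose, from 47.7 and 46.1 footprints to 57.4 and 57.3, with total RNA at 34.0 and 40.6 in WT and 45.6 and 43.1 in asc1-M1X. Its footprints rose by 23.8% (log2 change 0.31 ± 0.08, adjusted p = 0.00546), and the adjusted p ran from 0.000257 to 0.064 over the alternative settings. MRPL17 fell in total RNA alone, from 56.4 and 61.8 to 44.5 and 44.4 (log2 change -0.40 ± 0.09, adjusted p = 0.00885), with footprints at 41.9 and 47.6 against 39.4 and 40.2. MRPL36 (YBR122C), the bL31 protein, had 49.9 and 48.5 footprints in WT and 50.7 and 46.5 in asc1-M1X, a change of 0.00 ± 0.08.

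Among the other members with a bacterial counterpart, IMG1 (YCR046C), the bL19 protein, showed the largest footprint change of all 41, from 47.5 and 48.2 to 29.0 and 27.1, with total RNA at 74.8 and 63.2 in WT and 59.8 and 51.4 in the mutant. Footprints fell by 40.6% (log2 change -0.75 ± 0.09, adjusted p = 1.98e-05) and TE fell by 27.7% (adjusted p = 0.0391). MRPL50 (bL9) fell from 39.9 and 46.1 to 25.1 and 27.3 and MRPL39 (bL33) from 24.7 and 21.0 to 13.2 and 14.5, with changes of -38.7% and -38.4%, and their total RNA overlapped between the strains. In all, 22 of the 26 members with a bacterial counterpart fell in footprints, with a median of -0.41. The 5 members whose TE fell (IMG1, YML6, MRPL22, MRPL19 and MRP7) have one, as do 26 of all 41 members. This was not tested, and 0 of these TE calls held under every setting tried.

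Of the 15 mitochondria-specific proteins, 9 fell and 1 rose in footprints, with a median of -0.43. MRPL20 (YKR085C) went from 49.2 and 54.1 to 33.3 and 28.2 in footprints and from 48.2 and 50.9 to 37.6 and 39.0 in total RNA. MRPL44 went from 41.8 and 45.0 to 26.7 and 26.3 in footprints and from 26.0 and 27.6 to 21.3 and 18.04 in total RNA. Both genes therefore fell in both measures without overlap, with footprint changes of -39.9% and -38.3%. MRPL13 (YKR006C) and MRPL51 (YPR100W) did the same, with footprint changes of -33.4% and -34.9% and total RNA changes of -21.6% and -26.8%, although MRPL51 overlaps YPR099C and its reads are uncertain. MRPL27 (YBR282W) and MRP49 (YKL167C), at 0.09 and -0.01 in footprints, were among the 9 members not called.

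**Figure D2:**
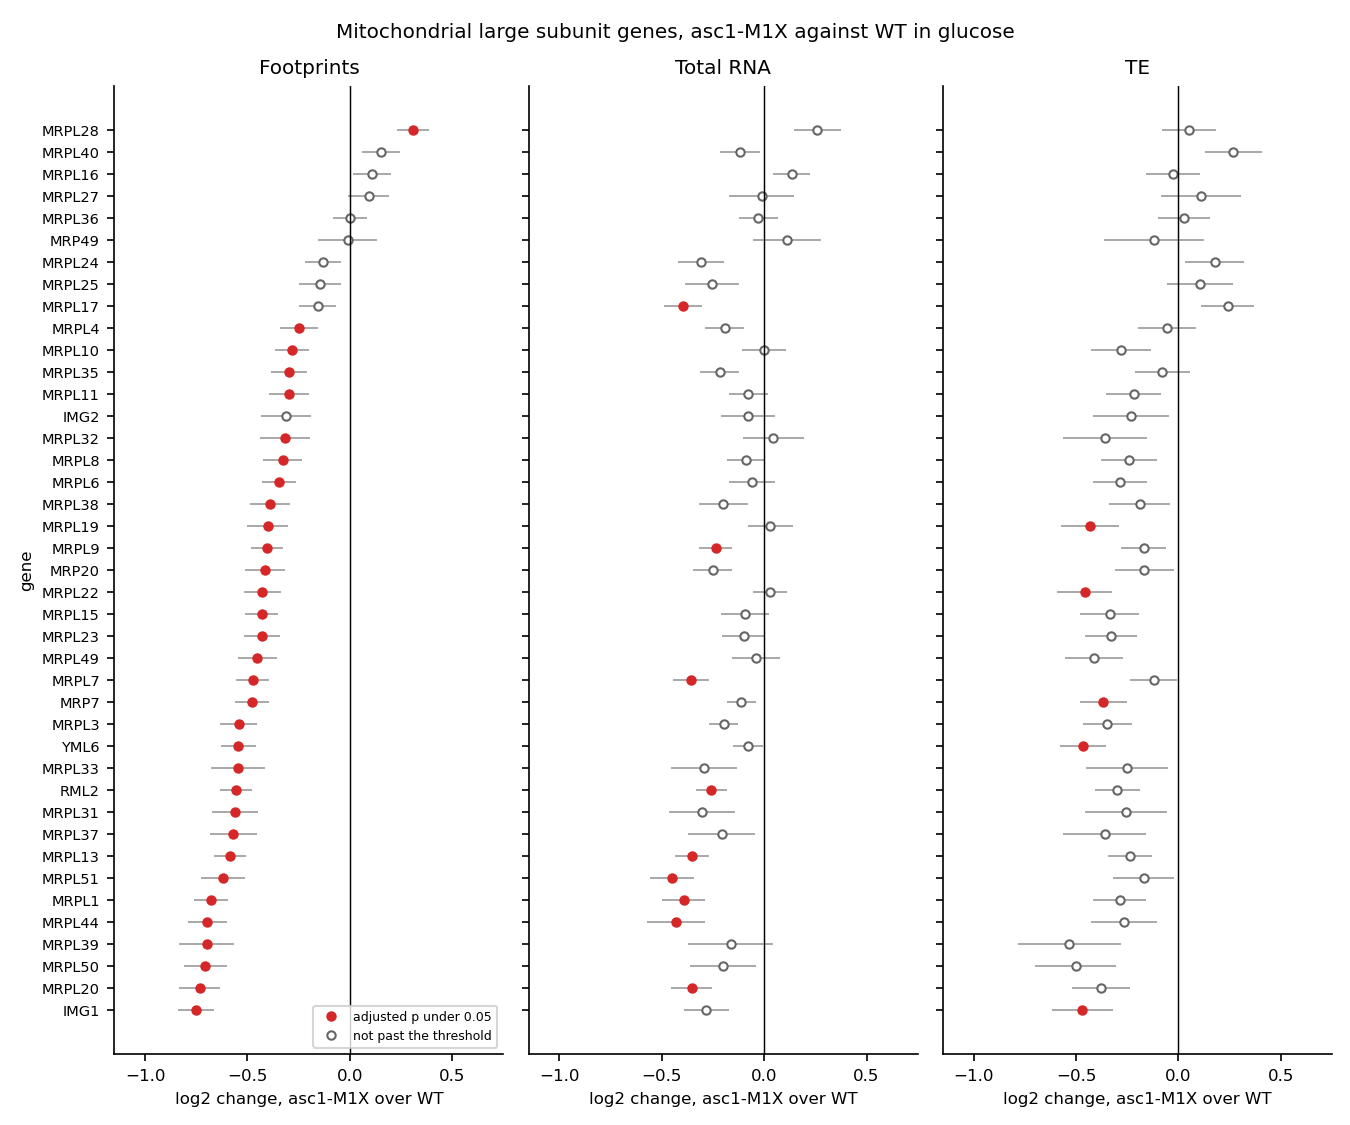
Log2 change of each large subunit gene in asc1-M1X over WT in glucose, in footprints, total RNA and TE, sorted by the footprint change. Points are edgeR estimates from 2 libraries per group, bars are their SE, and filled points have an adjusted p under 0.05: 31 genes lie left of 0 and filled in footprints, 9 in total RNA and 5 in TE, and MRPL28 is the filled point on the right, which DESeq2 did not call.

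The 9 genes called in total RNA and the 5 called in TE did not share a member. TE is computed from the same total RNA libraries, so the 2 lists are not independent. Of the 9, 8 were among the 32 called in footprints, as were all 5, where 78.0% of the 41 members were called. These overlaps were not tested. The footprint calls held for 23 members under all 9 settings tried, YML6 among them. The total RNA calls and the TE calls were less stable: without asc1-M1X replicate 1 or replicate 2, total RNA fell for 2 and 1 members and TE for 0 in both cases, while DESeq2 called 3 and 0 and scaling to library size left 4 and 2 lower, with 1 higher in total RNA. With the culture as a block, since footprints and total RNA came from the same extracts, TE fell for 12 members. For this and the later block counts the share of all genes called under the same fit is not given. They show how the calls move with the fit and are not read as results about the members. Under scaling to library size 3 members rose and 23 fell in footprints.

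The other ribosomal protein gene groups fell with them. Of 33 proteins of the mitochondrial small subunit, 19 fell in footprints and none rose, with a median of -0.29, and of 131 cytosolic ribosomal protein genes 128 fell and 2 rose, with a median of -0.52. Of 15 mitochondrial translation and assembly factors 4 fell, with a median of -0.06. The differences between these groups were not tested.

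The deletion of ASC1 gave a response of similar size. In asc1Δ, which shares its WT libraries with asc1-M1X, footprints fell for 28 members and rose for 1, against 23.9% and 24.9% of 4958 genes, and the median was -0.43. Total RNA fell for 6 members and rose for none, against 14.6% and 16.7%, with a median of -0.18, and TE fell for 1 and rose for none, against 4.82% and 7.2%, with a median of -0.23. MRPL44 changed most, at 22.3 and 25.8 footprints in asc1Δ against 41.8 and 45.0 in WT, a change of -44.6% (log2 change -0.85 ± 0.11, adjusted p = 3.81e-05). MRPL39 fell by 43.3% and MRPL20 fell by 42.5%. MRPL28 rose here too, to 59.1 and 57.8 (log2 change 0.34 ± 0.08, adjusted p = 0.00562), and it stayed called under all 9 settings. For each of these 4 genes both asc1Δ footprint libraries lay outside the range of the WT libraries, where 74.6% of all genes did not overlap.

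IMG1 was the 1 member whose TE fell in asc1Δ, with footprints of 29.0 and 30.3 against 47.5 and 48.2 in WT and total RNA of 62.6 and 57.8 against 74.8 and 63.2 (log2 TE change -0.51 ± 0.14, adjusted p = 0.0361). YML6 had footprints of 42.8 in both asc1Δ libraries and a TE change of -0.41 ± 0.12, just outside the threshold (adjusted p = 0.0504). The block on culture raised the TE calls to 10 members, while DESeq2 made none, and TE was called for 0 members without asc1Δ replicate 1, asc1Δ replicate 2 or WT replicate 1. Total RNA fell for 2, 1, 3 and 2 members without asc1Δ replicate 1, asc1Δ replicate 2, WT replicate 1 and WT replicate 2, and DESeq2 and scaling to library size each called 1.

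The ribosome-binding mutants asc1-D109Y and asc1-DE showed no called change in these genes. In asc1-D109Y, edgeR called 0 members in footprints, total RNA or TE, with 3, 0 and 0 at an unadjusted p under 0.05, and DESeq2 called 0 in each. Over all 4871 genes 0.985%, 0.37% and 0% were called. YML6 had 58.1 and 58.4 footprints and 84.9 and 80.0 scaled RPM of total RNA in asc1-D109Y, within the range of the WT libraries for footprints, and its TE changed by -0.02 ± 0.11. Footprints of IMG1 were 43.8 and 40.8 against 47.5 and 48.2 in WT (log2 change -0.18 ± 0.08, adjusted p = 0.598). The median footprint change of the members was -0.06, and 35 of the 41 lay below 0, against 50.3% of all genes. The members share the same libraries, and this lean was not tested. In asc1-DE, whose cells were harvested and whose libraries were made by another procedure than the main experiment, edgeR and DESeq2 again called 0 members in each measure, with 0 at an unadjusted p under 0.05. All genes gave 0.0213%, 0% and 0%, so that few genes of any kind were called, and the median footprint change of the members was -0.03.

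asc1-M1X and asc1-D109Y were also compared directly. Footprints were lower in asc1-M1X for 25 members and higher for 1, against 25.4% and 26.3% of 4941 genes, with a median difference of -0.36. YML6 was lower by 30.2% in footprints (adjusted p = 9.55e-06), and MRPL28 was higher by 18.2% (adjusted p = 0.017). TE was lower for 4 members and higher for none, against 6.62% and 10.2% of all genes: MRPL50, MRPL22, YML6 and MRPL3 (YMR024W), the last of which carries an RNase III-like fold. For YML6 the TE difference was -0.44 ± 0.11 (adjusted p = 0.0121). With the culture block TE was lower for 10 members, with DESeq2 for 1, and without asc1-M1X replicate 1, asc1-M1X replicate 2 or asc1-D109Y replicate 2 for 1, 0 and 2. Scaling to library size gave 4 higher and 21 lower in footprints.

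Loss of 1 copy of a 60S subunit gene left the median of the members near that of all genes, with some genes up and others down. In rpl23bΔ footprints rose for 12 members and fell for 10, against 24.6% and 24.8% of 4891 genes, and in rpp1aΔ they rose for 9 and fell for 4, against 21% and 20.4% of 4890 genes. The medians were -0.02 and 0.02. Scaling to library size gave 17 higher and none lower, with a median of 0.16, in rpl23bΔ and 16 higher and none lower, with a median of 0.18, in rpp1aΔ. That scaling put the median of all genes at 0.18 and 0.17. Relative to the median gene the members stood at -0.02 and 0.01, against -0.03 and 0.01 under the main scaling. DESeq2 called fewer, with 6 higher and 2 lower in rpl23bΔ and 3 higher and 1 lower in rpp1aΔ. The strains share their WT libraries with each other and with the asc1 mutants.

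MRP49, a mitochondria-specific protein, was the member that rose most in both. Its footprints were 30.1 in both WT libraries, 53.3 and 56.9 in rpl23bΔ and 50.2 and 57.8 in rpp1aΔ, with total RNA at 20.1 and 28.0 in WT, 29.1 and 42.3 in rpl23bΔ and 30.0 and 34.6 in rpp1aΔ. The footprint groups lay far apart, with increases of 81.9% (log2 change 0.86 ± 0.10, adjusted p = 2.33e-06) and 78.0% (log2 change 0.83 ± 0.10, adjusted p = 0.000362). MRPL27 went from 34.0 and 39.4 footprints in WT to 62.3 and 65.1 in rpl23bΔ and 53.3 and 62.6 in rpp1aΔ, increases of 72.4% and 56.3%. MRPL10 (uL15) went from 68.6 and 77.9 to 97.8 and 105 in rpl23bΔ and 92.4 and 104 in rpp1aΔ, increases of 37.5% and 33.2%. These 3 genes were called higher under all 9 settings in both strains, and IMG1 and MRPL36 were too in rpl23bΔ.

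In the downward direction the largest change in both strains was that of MRPL24 (YMR193W), the bL28 protein, at 51.5 and 59.4 footprints in WT, 37.9 and 44.3 in rpl23bΔ and 38.9 and 47.2 in rpp1aΔ. Its log2 changes were -0.45 ± 0.11 (adjusted p = 0.00247) and -0.38 ± 0.12 (adjusted p = 0.0289), and under scaling to library size no member was called lower. Total RNA fell for MRPL13 in both, with changes of -24.1% and -22.8%, and rose for MRPL10 in rpp1aΔ, by 27.2%, and these were the only total RNA calls of edgeR with all libraries. Of all genes 11.8% rose and 12.4% fell in rpl23bΔ and 13% rose and 15.2% fell in rpp1aΔ. Scaling to library size turned the total RNA calls into 3 and 2 members higher with none lower. It also put the median total RNA change of all genes at 0.11 and 0.12. TE was called by edgeR for 0 members in both strains, against 2.62% and 3.87% of all genes, with 6 and 7 at an unadjusted p under 0.05 and 0 by DESeq2. With the culture block TE rose for 1 and fell for 1 in rpl23bΔ, and rose for 5 in rpp1aΔ.

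The footprint counts moved with single libraries. In rpl23bΔ they were 8 higher and 3 lower without WT replicate 2. In rpp1aΔ they were 4 higher and 3 lower without WT replicate 1, 5 higher and 1 lower without WT replicate 2, and 8 higher and 12 lower without rpp1aΔ replicate 2. Total RNA in rpl23bΔ was called for 5 higher and 1 lower without rpl23bΔ replicate 1, 5 lower without rpl23bΔ replicate 2, 0 without WT replicate 1 and 1 higher without WT replicate 2. In rpp1aΔ it was 4 lower without WT replicate 1 and 2 higher with none lower without WT replicate 2.

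Set directly against these strains, asc1-M1X had lower footprints on most of the members. They were lower for 28 and higher for 1 than in rpl23bΔ, against 30.9% and 30.8% of 4962 genes, and lower for 27 and higher for none than in rpp1aΔ, against 30.5% and 29.2% of 4959 genes. IMG1 showed the largest TE difference in both, since its footprints were 64.0 and 57.8 in rpl23bΔ and 54.8 and 56.2 in rpp1aΔ against 29.0 and 27.1 in asc1-M1X, while its total RNA lay between 51.4 and 59.8 in all 3 strains. The TE differences of asc1-M1X were -52.8% (log2 difference -1.08 ± 0.16, adjusted p = 0.000366) and -46.6% (log2 difference -0.91 ± 0.13, adjusted p = 0.000394).

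In total 6 members had a lower TE in asc1-M1X than in rpl23bΔ (IMG1, MRPL20, MRPL23 (YOR150W), MRPL44, YML6 and MRPL13) and 17 than in rpp1aΔ, against 8.26% and 14.9% of all genes, and none a higher TE, against 11.6% and 16.6%. For YML6 the TE differences were -0.50 ± 0.14 (adjusted p = 0.022) and -0.57 ± 0.11 (adjusted p = 0.00273). Against rpl23bΔ the count was 3 and 1 without asc1-M1X replicate 1 and replicate 2 and 20 without rpl23bΔ replicate 2, and with the culture block 9 lower and 1 higher. Against rpp1aΔ it was 5 and 4 without asc1-M1X replicate 1 and replicate 2 and 8 by DESeq2.

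Of the 40S subunit deletions, rps0bΔ lowered footprints for 11 members and raised them for 1, against 11.1% and 8.57% of 4832 genes, with a median of -0.21. MRPL39 went from 28.3 and 24.1 scaled RPM in the WT of the collection to 17.3 and 17.4, MRPL27 from 52.2 and 44.9 to 35.6 and 29.7, and MRPL25 (YGR076C) from 50.4 and 51.1 to 36.9 and 33.2. None of these overlapped between the strains, where 62.8% of all genes did not. The changes were -34.0%, -32.5% and -30.7%, in that order. MRPL38 (YKL170W, uL14) fell by 27.9%, and MRPL25, MRPL27 and MRPL38 were called under all 8 settings. MRPL3 rose from 71.6 and 86.8 to 94.3 and 107.3 (log2 change 0.35 ± 0.11, adjusted p = 0.0411), and DESeq2 called it neither way. Total RNA fell for 8 members and rose for none, against 12.4% and 12% of all genes, with IMG1 foremost, at 58.5 and 47.6 in WT and 38.4 and 40.5 in rps0bΔ (log2 change -0.42 ± 0.11, adjusted p = 0.00688), and its footprints overlapped. TE was called by edgeR for 0 members, against 1.43%, with 9 at an unadjusted p under 0.05 and 0 by DESeq2. Without rps0bΔ replicate 2, footprints fell for 4 members and total RNA for 2, and by DESeq2 they fell for 6 and 2.

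In rps16bΔ, MRPL16 alone was called in footprints, at 43.2 and 38.5 against 56.2 and 51.4 in WT, a change of -24.4% (log2 change -0.40 ± 0.09, adjusted p = 0.0226), where 4.74% of all genes fell and 3.5% rose. Total RNA and TE were called by edgeR for 0 members, with 2 and 2 at an unadjusted p under 0.05 and 0 by DESeq2, against 0.414% and 0.145% of all genes. These counts rested on single libraries: without rps16bΔ replicate 2 footprints were called for 0 members, total RNA fell for 16 and TE rose for 3, and without WT replicate 2 footprints rose for 4 and fell for 13. The rps0bΔ and rps16bΔ comparisons share their WT libraries, and all libraries of this experiment were made with another reverse transcriptase than those of the main experiment.

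**Figure D3:**
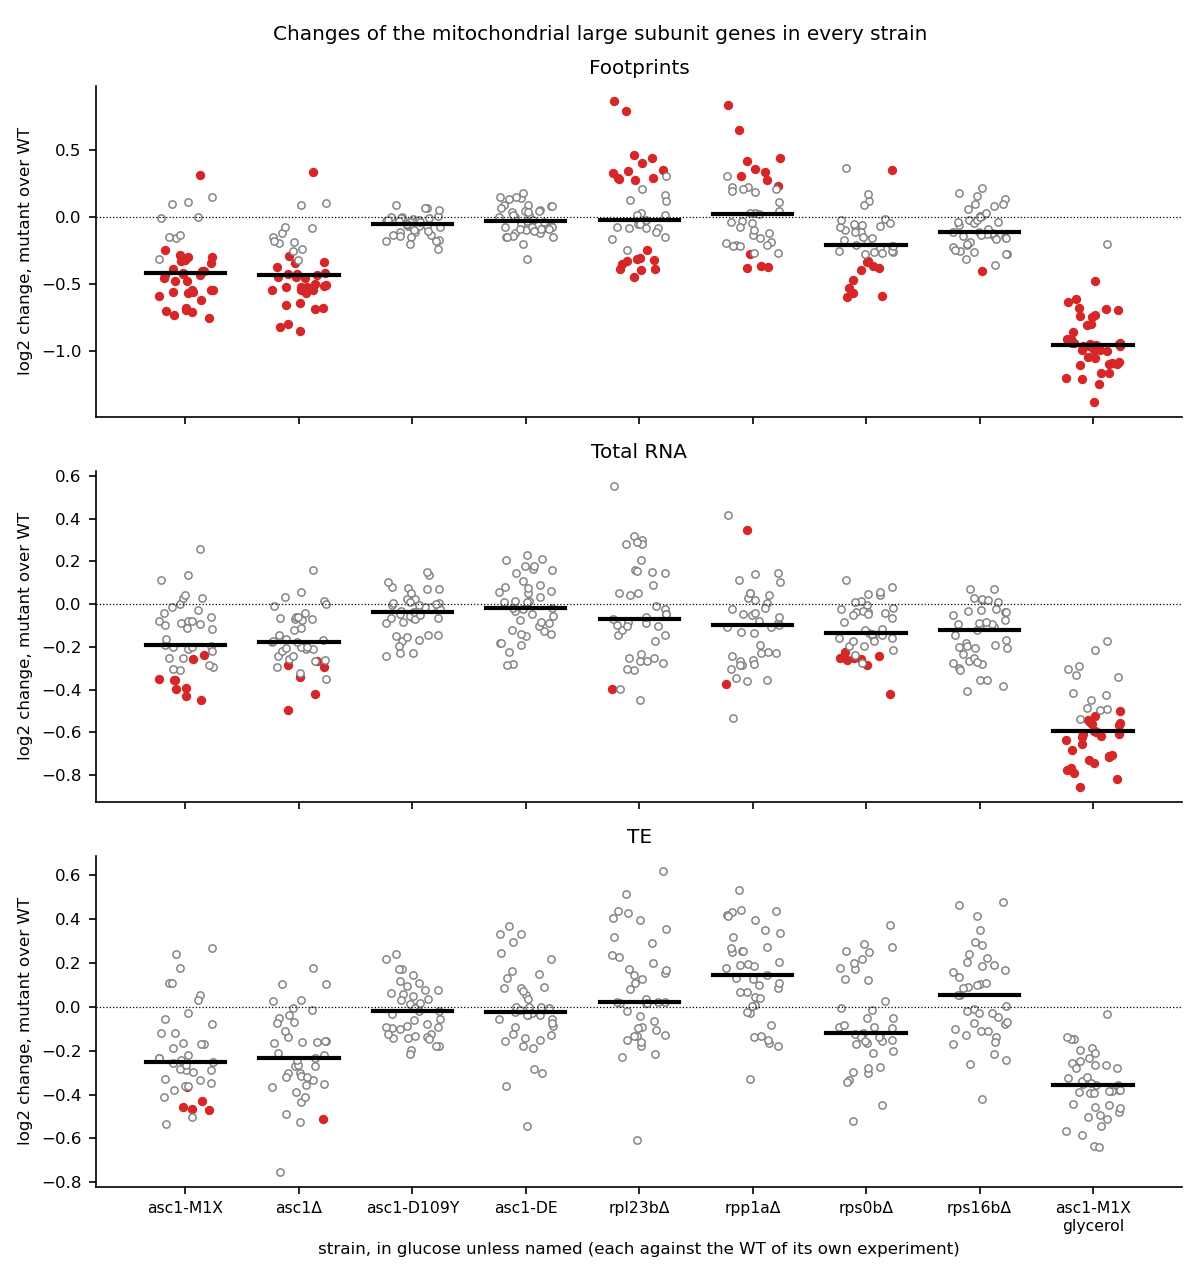
Log2 change over the WT of the same experiment for each of the 41 large subunit genes (1 point per gene) in footprints, total RNA and TE, for 8 strains in glucose and for asc1-M1X in glycerol. Filled points have an edgeR adjusted p under 0.05 and bars mark the medians: the footprint medians are -0.42 and -0.43 in asc1-M1X and asc1Δ, -0.06 and -0.03 in asc1-D109Y and asc1-DE and -0.95 in glycerol, and those of rpl23bΔ (-0.02) and total RNA of rpl23bΔ and rpp1aΔ (-0.07 and -0.10) turn positive under scaling to library size. That scaling raises the median of all genes in these strains as well.

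In the glycerol experiment the large subunit messages took a far larger share of the WT libraries than in the main glucose experiment. All 41 members rose in WT footprints, against 38.9% of 5091 genes that rose and 37.7% that fell, with a median of 2.25 on the log2 scale (4.76-fold) and a range from 1.54 for MRPL44 to 2.82 for MRPL31 (YKL138C). Total RNA rose for 40 and fell for none, against 42% and 43.4%, with a median of 3.12 (8.71-fold). The median total RNA level per kb was 825.8 scaled RPM in glycerol and 90.2 in the main glucose WT used here, but 210.2 in the glucose WT of the deletion collection, each scaled within its own experiment and not tested against the others. The media were sequenced in separate experiments with 2 libraries each, and medium and experiment cannot be told apart.

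MRPL31, a mitochondria-specific protein, went from 31.7 and 37.2 scaled RPM in footprints in glucose to 215 and 284 in glycerol, and from 22.8 and 31.4 to 817 and 975 in total RNA. MRPL16 went from 45.2 and 52.3 to 297 and 379 in footprints and MRPL40 from 41.7 and 49.5 to 257 and 386. YML6, with the second lowest increase, still went from 64.2 and 58.3 to 189.9 and 245.4, a 3.49-fold rise. The media did not overlap for any of the 41 genes in footprints, where 89.3% of all genes did not. The small subunit genes rose with them, 33 of 33 with a median of 2.15, as did 15 of 15 translation and assembly factors with a median of 2.12, while 128 of 131 cytosolic ribosomal protein genes fell, with a median of -1.65.

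In contrast to footprints, total RNA changes were spread over a wide range, and the spread varied with the length of the gene. MRPL39, with 213 nt, rose 38.4-fold, from 12.3 and 17.8 scaled RPM to 543 and 607, and MRPL33, with 261 nt, rose 25.6-fold. RML2, with 1182 nt, rose 3.26-fold, and MRPL4, with 960 nt, went the other way, from 89.7 and 75.7 to 51.4 and 73.4 (log2 change -0.37 ± 0.17, adjusted p = 0.0671). The rank correlation of the total RNA change with coding length was -0.87 over the members and -0.61 over all genes, and for footprints it was -0.13 and -0.15.

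The same relation to length was present in the levels. In the glycerol WT the total RNA levels per kb spanned 74.8-fold over the members, with a rank correlation with length of -0.90, and in the glucose WT of the deletion collection 77.4-fold, with -0.85. In the glucose WT of the main experiment the span was 2.97-fold and the correlation -0.31, and with Ribo-Zero the correlation was -0.29. In the collection experiment MRPL39 held 1055 and 1166 scaled RPM per kb of total RNA and MRPL4 13.9 and 14.8, against 120.4 and 173.8 for MRPL39 and 108.2 and 91.2 for MRPL4 in the main experiment, all in glucose. The wide span was thus present in glucose in the one experiment and absent in the other, and its part in the TE difference between the media was not tested. TE between the media fell for 25 members and rose for 3, against 34% and 39.9% of all genes, with a median of -0.83 against 0.11. This fall is relative to the main glucose WT: the median log2 TE of the members was -0.78 in the glycerol WT, 0.03 in the main glucose WT and -1.03 in the glucose WT of the deletion collection, and a fit against the last was not run. The TE change had a rank correlation with length of 0.86 over the members and 0.63 over all genes, with MRPL39 at -2.82 and MRPL4 at 2.33. Scaling to library size moved the median TE change of all genes by 0.25.

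In the glycerol experiment the large subunit genes lay further below WT in asc1-M1X than in the glucose experiment. Medium and experiment cannot be told apart here either. In asc1-M1X in glycerol footprints fell for 40 of the 41 members, against 22.5% of 5083 genes, and rose for none, against 18.7%. The median change was -0.95 (-48.3%), and total RNA fell for 28 and rose for none, against 8.36% and 9.58%, with a median of -0.59 (-33.8%). TE was called by edgeR for 0 members, against 0.216% of all genes, with 6 at an unadjusted p under 0.05 and 0 by DESeq2. The median TE change was -0.35, and with the culture block TE fell for 13.

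MRPL1, the uL1 protein, fell most, from 275 and 365 scaled RPM in footprints in WT to 117 and 129 in asc1-M1X, with total RNA at 257 and 372 against 177 and 196. The groups did not overlap in either measure, where 74.3% of all genes did not in footprints and 61.6% in total RNA. Footprints of MRPL1 fell by 61.5% (log2 change -1.38 ± 0.15, adjusted p = 0.00131), total RNA fell by 40.3% (adjusted p = 0.0152), and the TE change was -0.63 ± 0.26 (adjusted p = 0.34). YML6 went from 195 and 251 to 88.2 and 99.6 in footprints and from 235 and 307 to 181 and 173 in total RNA, changes of -57.8% and -34.2%. The other members with the largest decreases were MRPL7, MRPL13, MRPL51, RML2, MRPL31 and IMG1, with footprint changes of -56.7%, -56.4%, -55.5%, -55.3%, -53.4% and -53.2%. Total RNA of MRPL31 fell most of all members, from 795 and 945 to 496 and 459, a change of -44.7%.

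MRPL28 was the member not called in footprints, at 225 and 259 in WT and 206 and 214 in asc1-M1X (log2 change -0.20 ± 0.11, adjusted p = 0.176). MRPL16, another member that had not fallen in glucose, went from 304 and 387 to 232 and 263 (log2 change -0.48 ± 0.14, adjusted p = 0.032), the smallest called decrease. All 6 peptidyl transferase region genes, all 4 exit tunnel genes, all 3 stalk base genes and 4 of 5 central protuberance genes fell in footprints. Of the small subunit genes 32 of 33 fell, with a median of -0.82, of the cytosolic ribosomal protein genes 126 of 131, with a median of -0.88, and of the translation and assembly factors 11 of 15, with a median of -0.80. Among the members the TE change had a rank correlation with coding length of -0.60, against 0.13 over all genes, whereas in glucose it was 0.07 against 0.26.

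The total RNA count in glycerol rested on single libraries. It was 14 without either asc1-M1X replicate, 38 without WT replicate 1 and 7 without WT replicate 2, while footprints fell for 38 to 40 members in each case.

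The difference between the media was tested as the asc1-M1X effect in glycerol minus that in glucose. Each effect was taken against the WT of its own experiment, so a difference between media is also one between experiments. Footprints changed more in the downward direction in glycerol for 27 members and in the upward direction for none, against 20.1% and 7.19% of 5201 genes, and the median difference was -0.65 against -0.12 over all genes. MRPL40 differed most, with a change of 11.1% in glucose, which was not called, and of -48.6% in glycerol, from 264 and 394 to 157.8 and 179.7 (difference -1.19 ± 0.25, adjusted p = 0.0079). YML6 and MRPL1 each differed by -0.77 (adjusted p = 0.0133 and 0.015), and MRPL28 by -0.58 (adjusted p = 0.00886). IMG1 and MRPL39 were not called, at -0.42 ± 0.17 and -0.32 ± 0.32. Total RNA differed for IMG2 (YCR071C) and MRPL22, by -0.67 and -0.55, against 5.71% of all genes lower and 5.81% higher, and TE for 0 members by edgeR, against 0.711%, with 2 at an unadjusted p under 0.05, 0 by DESeq2 and 4 lower with the culture block.

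The count of 27 depended on every library but WT glycerol replicate 2 and asc1-M1X glycerol replicate 2. It was 1 and 5 without WT glucose replicate 1 and replicate 2, 10 and 11 without asc1-M1X glucose replicate 1 and replicate 2, 8 without asc1-M1X glycerol replicate 1, and 41 without WT glycerol replicate 1. It was 17 under scaling to library size. The total RNA count was 24 without WT glycerol replicate 1 and 0 or 1 without any other library.

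**Figure D4:**
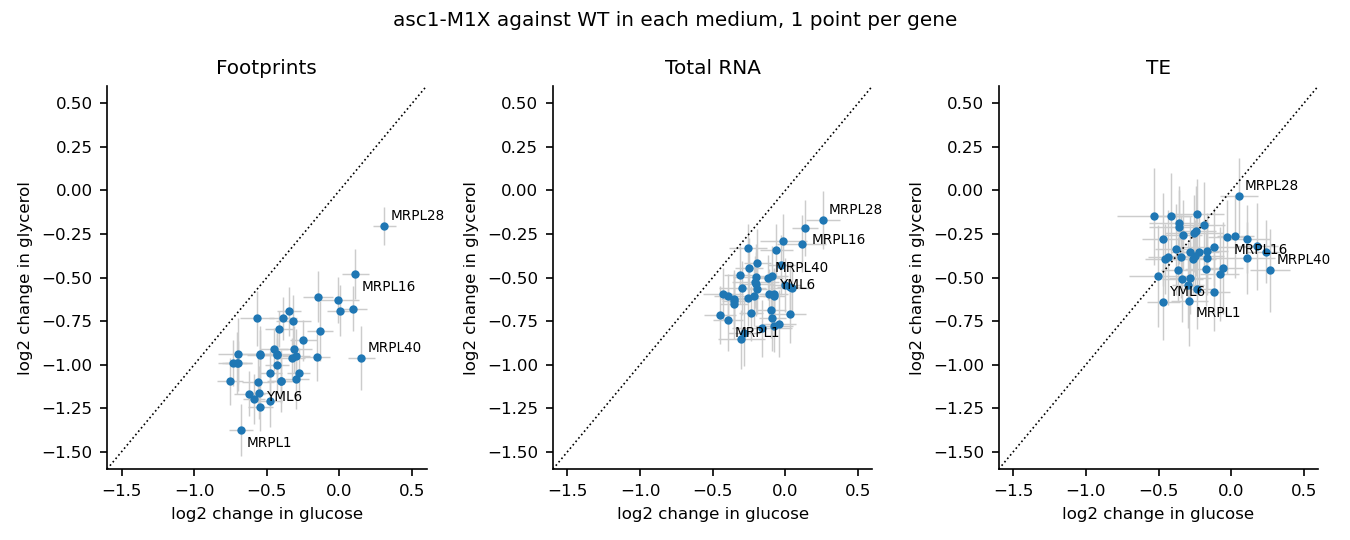
Log2 change of each large subunit gene in asc1-M1X over WT in glycerol (vertical axis) against glucose (horizontal axis), in footprints, total RNA and TE, with SE bars from 2 libraries per group and the dotted line marking equal change. All 41 points lie below the line in footprints and in total RNA, with MRPL28 uppermost and MRPL1 lowest in footprints, and the TE points lie on both sides of the line.

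Ribo-Zero total RNA gave a second measure of the asc1-M1X total RNA change in glucose. It fell for 14 members and rose for 1, against 18.3% and 19.1% of 4849 genes, with a median of -0.25. MRPL1 fell from 58.8 and 66.2 to 36.9 and 34.1 (log2 change -0.79 ± 0.13, adjusted p = 5.24e-09) and MRPL7 from 57.5 and 61.2 to 38.9 and 42.8, and these were called under all 9 settings. MRPL10 was higher, at 54.0 and 64.7 against 66.1 and 73.4 (log2 change 0.27 ± 0.11, adjusted p = 0.0402), where the poly(A) libraries gave 0.00 and DESeq2 made no call. YML6 was at 50.6 and 54.2 in WT and 45.7 and 55.5 in asc1-M1X, with overlapping libraries as its total RNA change of -0.02 ± 0.12 shows. Both YML6 and MRPL10 had a lower TE with these libraries, with changes of -30.2% and -31.6% (adjusted p = 0.0285 and 0.0132), against 4.48% of all genes that fell and 4.87% that rose, with the same footprint libraries as before.

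Of the 9 genes called with poly(A) selection and the 15 called with Ribo-Zero, 5 were shared in direction, 55.6% of the first and 33.3% of the second. The 2 selections share no total RNA library, and a test of the difference between them called 0 members by edgeR and by DESeq2, with 4 at an unadjusted p under 0.05 and 1.26% of all 5235 genes called. Without asc1-M1X replicate 1, asc1-M1X replicate 2 and WT replicate 2 the Ribo-Zero total RNA calls were 5, 7 and 10, with 9 under scaling to library size and 2 by DESeq2, and TE was lower for 0 members without any 1 of the 4 cultures and higher for 1 without WT replicate 2.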

How the data were processed

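Per the labels and the study's methods, the authors trimmed the reads, mapped them with TopHat to splice junctions and then to the Sigma1278b genome, and deposited whole-number counts of uniquely aligned reads per open reading frame, leaving out the first 30 codons. The versions of the tools are not given in the sources used here. In the main experiment the authors pooled a second library into each replicate 1 footprint count. The deposited counts were used as they stand, without the 19 genes of the mitochondrial genome, and 5560 of 5563 identifiers were matched to symbols of the R64 reference. Total RNA was selected on oligo-dT, or with Ribo-Zero where stated, and was fragmented.

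Counts were tested with edgeR 4.0.16 (quasi-likelihood test) in R 4.3.3 on the libraries of the strains compared, for genes with at least 128 reads in both kinds of library, after scaling with the trimmed mean of M values. TE was the interaction of strain and library kind. P-values were adjusted with the Benjamini-Hochberg method over all genes tested, in 42 tests across genes from 16 comparisons. A library was counted as overlapping where a value of 1 group fell within the other. Alternatives were DESeq2 1.42.0, plain library size, no read minimum, a block (replicate number for footprints and total RNA, culture for TE) and leaving out each culture. In levels per kb the coding length was taken without the first 90 nt and the last 18 nt. The steps were tested on simulated data.

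Members named with values were YML6, up to 8 called members with the largest change in each comparison and measure, the 2 with the smallest TE change in asc1-M1X, called members that moved against the median, and those with extreme length or level. Some others were named after their values were seen. The 41 members, the gene lists and the roles, which follow homology to bacterial proteins, were chosen with earlier results of these data known. Footprints and total RNA of 1 culture came from 1 extract, and their deviations from the group means had correlations of 0.15 to 0.53 in 14 pairs, so that the culture was used as a block in a further TE fit. With 2 cultures per group, p-values rest on a spread between cultures that is estimated for each gene with information shared over all genes tested. Counting intervals would cover sampling error only.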

Additional observations from a re-analysis of the deposited data

Results flagged for a closer look

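Several contrasts between groups passed a test of the difference itself. The asc1-M1X effect differed between the glycerol and the glucose experiment for 27 members in footprints and 2 in total RNA. The footprint count rests on single libraries as given in the report. Against asc1-D109Y, asc1-M1X differed for 26 members in footprints and 4 in TE. Against rpl23bΔ it differed for 29 members in footprints and 6 in TE, and against rpp1aΔ for 27 and 17. No group held 4 or more libraries of 1 kind, so that single libraries were not tested as outliers.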

How the results depend on the processing

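The number of members called moved by more than 1.5 times, or crossed 0, as follows. With DESeq2 it was 3 (total RNA) and 0 (TE) in asc1-M1X, 1 and 0 in asc1Δ, 8 in footprints and 0 in total RNA of rpl23bΔ, 4 and 0 in those of rpp1aΔ, 6 and 2 in those of rps0bΔ, 2 (total RNA) and 0 (TE) with Ribo-Zero, 7 for the medium difference in total RNA, and 1 and 8 for TE of asc1-M1X against asc1-D109Y and rpp1aΔ. Under scaling to library size it was 5 and 2 in total RNA and TE of asc1-M1X, 1 in total RNA of asc1Δ, 3 and 1 in total RNA and TE of rpl23bΔ, 2 in total RNA of rpp1aΔ (both higher, where the main split was 1 and 1), 2 in footprints of rps16bΔ, 9 in Ribo-Zero total RNA and 17 for the medium difference in footprints. With no read minimum it was 1 in TE of rpl23bΔ, 2 in footprints of rps16bΔ and 5 for the medium difference in total RNA. Medians that changed sign were those of rpl23bΔ in footprints (0.16 under library size, and -0.067 to 0.070 over left-out cultures, with 0.00056 without rpl23bΔ replicate 1) and total RNA (0.033 under library size, -0.18 to 0.031 over left-out cultures), and of rpp1aΔ in footprints (-0.065 to 0.10 over left-out cultures, with -0.036 without rpp1aΔ replicate 2) and total RNA (0.013 under library size). The total RNA call of rpl23bΔ became 1 higher, and those of rpp1aΔ 2 higher, without WT replicate 2.

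Across strains the replicate numbers gave correlations of 0.014 to 0.64 in 14 pairs, 13 of them over 0.1, and mark no shared batch in the labels. The block was the replicate number for footprints and total RNA, and the culture for TE. With these blocks 16 members were called in total RNA of asc1-M1X and 12 in its TE, 14 and 10 in asc1Δ, 8 and 2 in rpl23bΔ, 15 and 5 in rpp1aΔ with 22 in footprints, 13 in TE in glycerol, 0 and 4 in total RNA and TE for the medium difference, and 10 in TE of asc1-M1X against asc1-D109Y and against rpl23bΔ.

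Leaving out 1 culture at a time, the footprint calls ranged over 29–31 in asc1-M1X, 27–33 in asc1Δ, 0–0 in asc1-D109Y and asc1-DE, 11–21 in rpl23bΔ, 6–20 in rpp1aΔ, 4–15 in rps0bΔ, 0–17 in rps16bΔ, 38–40 in glycerol, 41–41 between the media, 1–41 for the medium difference, and 22–28, 22–29 and 23–33 for asc1-M1X against asc1-D109Y, rpl23bΔ and rpp1aΔ. Total RNA calls ranged over 1–11, 1–3, 0–6, 2–4, 2–11, 0–16 and 7–38 in asc1-M1X, asc1Δ, rpl23bΔ, rpp1aΔ, rps0bΔ, rps16bΔ and glycerol, 40–41 between the media, 0–24 for the medium difference and 5–11 with Ribo-Zero. TE calls ranged over 0–5, 0–1, 0–1 and 0–3 in asc1-M1X, asc1Δ, rpl23bΔ and rps16bΔ, 21–32 between the media, 0–1 with Ribo-Zero, and 0–3, 1–20 and 4–20 for asc1-M1X against asc1-D109Y, rpl23bΔ and rpp1aΔ. The cause of these differences was not tested.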
